A study of Mus musculus with 8 samples.

Results

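The start of neuronal differentiation was followed through 8 genes in E8.5 mouse embryos of wild-type genotype, taken on the day on which the neural tube begins to close. The genes are the proneural genes *Neurog1* and *Neurog2*, the factors *Neurod1* and *Neurod4* that act after them, and *Tubb3*, *Elavl3*, *Dcx* and *Stmn2*, which newly born neurons express. They were chosen by name, as 8 of the 20660 named genes on the array, and are read by 11 of its 55681 probes. All 11 probes are described here, whatever their values. RNA of *Tubb3*, *Stmn2*, *Elavl3* and *Neurog2* was measured in every embryo, *Dcx* and *Neurog1* lay near the limit of the array, and *Neurod1* and *Neurod4* lay at background in nearly all embryos. For the 5 members that could be tested no difference between embryos of the 2 kinds of father passed the threshold, and the groups overlapped at each.

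The study asked whether reduced function of Polycomb Repressive Complex 2 (PRC2), of which EED is a core subunit, in the father's germline alters gene expression in offspring. Total RNA of whole embryos was hybridised to single-colour Agilent 8x60K arrays, 1 embryo for each array. Embryos WT-1 to WT-4 had *Eed* wt/wt fathers, and embryos HET-1 to HET-4 had *Eed* hypo/wt fathers, which carry 1 copy of the hypomorphic allele of the Eedl7Rn5-1989SB line. All mothers were wild type, and the labels give a mixed C57bl6/129 background for fathers and mothers, whereas a legend of the study names C57bl/6J mothers. All 8 embryos were themselves wild type, and each group held 2 females and 2 males by the labels. None of these embryos had a father without a normal *Eed* copy. A replicate is an embryo. The labels do not say which embryos shared a father or litter, although 3 embryos of *Eed* wt/wt fathers share the opening part of their code, and p-values treat the 8 embryos as independent. Each group was hybridised on a separate slide, and an effect of the slide cannot be told apart from one of the father. In whole embryos, fewer cells of a type and less RNA per cell cannot be told apart.

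Neurons arise when a progenitor of the neural tube, a cranial placode or the neural crest raises a proneural basic helix-loop-helix (bHLH) factor. This factor turns on Notch ligands, which hold neighbouring progenitors back through Hes genes, and it switches on a cascade of later bHLH factors and then genes of the neuronal cytoskeleton and RNA-binding proteins. At E8.5 the neural plate and early neural tube are mostly progenitors, and neurons are few. PRC2 trimethylates lysine 27 of histone H3 (H3K27me3), and CpG-rich promoters of developmental regulators, proneural genes among them, are well-known carriers of that mark in undifferentiated cells.

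The promoters of 4 members differ in CpG content over the 250 bases before the start, and bases beyond that window were not counted. Each line holds the 250 bases before the start of the transcript in RefSeq (build GRCm38.p6), 5′ to 3′ on the strand of the gene, and capitals mark every CG. The proneural paralogs *Neurog1* (chr13:56252181-56252430, minus strand) and *Neurog2* (chr3:127632886-127633135, plus strand) are followed by *Elavl3* (chr9:22052024-22052273, minus strand) and *Dcx* (chrX:143933125-143933374, minus strand), which are shown because their signals varied together among the embryos.
Neurog1: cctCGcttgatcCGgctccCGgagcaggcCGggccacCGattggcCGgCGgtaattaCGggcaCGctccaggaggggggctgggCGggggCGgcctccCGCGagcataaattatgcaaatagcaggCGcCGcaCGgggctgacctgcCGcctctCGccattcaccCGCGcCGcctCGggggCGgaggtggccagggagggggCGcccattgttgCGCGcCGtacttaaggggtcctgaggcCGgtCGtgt
Neurog2: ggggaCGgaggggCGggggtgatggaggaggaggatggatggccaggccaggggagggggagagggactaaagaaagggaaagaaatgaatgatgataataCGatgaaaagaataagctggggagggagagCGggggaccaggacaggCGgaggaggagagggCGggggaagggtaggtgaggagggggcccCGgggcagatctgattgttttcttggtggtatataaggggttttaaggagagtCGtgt
Elavl3: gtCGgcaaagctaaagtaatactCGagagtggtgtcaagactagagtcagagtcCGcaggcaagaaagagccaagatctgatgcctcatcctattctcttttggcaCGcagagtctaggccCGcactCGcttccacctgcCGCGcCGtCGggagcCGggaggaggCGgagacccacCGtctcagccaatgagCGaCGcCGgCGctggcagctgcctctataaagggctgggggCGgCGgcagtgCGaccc
Dcx: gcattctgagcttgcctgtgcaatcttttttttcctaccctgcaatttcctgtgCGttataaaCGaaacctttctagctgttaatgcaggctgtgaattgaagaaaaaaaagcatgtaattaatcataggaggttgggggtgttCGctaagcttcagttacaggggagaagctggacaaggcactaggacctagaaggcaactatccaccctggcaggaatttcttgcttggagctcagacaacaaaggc
The *Neurog1* promoter holds 29 CG, and 6.78% of the 32851 promoters in the table hold as many or more. *Neurog2* holds 8, *Elavl3* 20 and *Dcx* 3, against a median of 6 over all promoters. Of the members not printed, *Neurod1* holds 22 and *Tubb3* 21, and the windows of *Neurod4* hold 7 and 2. A second start of *Dcx* also has 3. A promoter was matched for 7 of the 8 members, all but *Stmn2*. E-boxes of the kinds that proneural and NeuroD-type bHLH factors are known to bind were searched on both strands. The letters were CAGCTG, which reads the same on either strand, with CAGATG and its opposite-strand reading CATCTG. At least 1 of them occurs in 25.5% of all promoters of this length, and they do not overlap the CG letters in capitals. Among the windows of the members only that of *Elavl3* holds one, a CAGCTG that begins at position -43 from the start. Array signals bear on RNA alone, and no binding or methylation was measured in these embryos.

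Signals are log2 values of the background-subtracted intensity, set so that the 75th percentile of each array is 0, and they compare embryos for 1 probe at a time but not different probes with each other. Agilent's software marks a probe as well above background on an array or not, and a probe was tested if it was so marked on at least 4 of the 8 arrays and was not among the lowest 20% by mean, a rule that 33096 probes met. An array had 29204 to 39545 probes marked in this way. HET-3 and WT-1 stood apart from the rest, with array medians of -3.04 and -3.63 where the others lay between -4.36 and -4.08. Of the 1446 probes for olfactory and vomeronasal receptors, which these embryos should scarcely express, 539 were well above background in HET-3, 472 in WT-1, 184 in WT-4 and 52 to 120 in the other embryos. The local background of HET-4 also differed, at an intensity of 133 against 30 to 51 elsewhere. The differences of *Neurog2*, *Elavl3* and *Dcx*, the dimmer tested members, are therefore given with and without HET-3 and WT-1. Markers of heart, somites, neural crest, yolk sac endoderm and primitive erythroid cells were measured in every list, with all genes of those lists tested.

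*Neurog1*, which specifies sensory neurons of the cranial ganglia, was well above background in 3 embryos. Its log2 signal was -4.86 in WT-1, -6.30 in WT-2, -6.69 in WT-3 and -5.40 in WT-4, and -7.26 in HET-1, -6.08 in HET-2, -3.97 in HET-3 and -6.65 in HET-4. WT-1, WT-4 and HET-3 were the embryos in which it was measured, and they are also those with the most probes above background on the whole array. The groups overlapped, and with 3 arrays the probe was not tested.

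*Neurog2*, its paralog in the ventral neural tube and in other ganglia, was well above background in all 8 embryos. Its log2 signal was -2.58, -2.95, -3.20 and -3.13 in WT-1 to WT-4, and -3.18, -2.79, -2.85 and -3.67 in HET-1 to HET-4. WT-1 was highest and HET-4 lowest, 2.13-fold apart, and the groups overlapped. It averaged -2.96 ± 0.28 over WT-1 to WT-4 and -3.12 ± 0.40 over HET-1 to HET-4 (SD, n = 4 each).

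*Neurod1*, which carries the proneural programme on into neurons, was above background on 1 array at 1 of its 2 probes. That probe (A_55_P2004972) measured -5.0 in WT-1 and lay between -7.86 and -7.17 in the other embryos of *Eed* wt/wt fathers, while in those of *Eed* hypo/wt fathers it was -4.95 in HET-3 and between -7.44 and -7.05 in the others, none of them above background. The other *Neurod1* probe and the only probe of *Neurod4*, a factor that works beside the neurogenins in cranial ganglia and spinal cord, were above background in no embryo. Their signals ran from -8.21 to -7.82 with *Eed* wt/wt fathers and from -7.67 to -6.65 with *Eed* hypo/wt fathers. The medians of the negative control spots, -8.14 to -7.81 on the slide of the *Eed* wt/wt group and -7.57 to -6.74 on that of the *Eed* hypo/wt group, stepped between the slides in the same way. No fold change is given for either gene, since neither group had a measured level beyond the 1 array.

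*Tubb3*, the neuronal beta-tubulin, was measured in every embryo and varied little. Its log2 signal was 0.19, -0.02, 0.25 and 0.64 in WT-1 to WT-4, and 0.51, 0.37, 0.43 and 0.40 in HET-1 to HET-4. WT-4 was highest and WT-2 lowest, so that the embryos of *Eed* hypo/wt fathers all lay inside the range of the other group. The means were 0.26 ± 0.28 (SD, n = 4) and 0.43 ± 0.06 (SD, n = 4).

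*Stmn2*, a stathmin that binds tubulin in growing axons, was likewise measured everywhere. It had log2 signals of 0.90, 0.89, 1.01 and 1.41 in WT-1 to WT-4, and of 0.74, 0.81, 0.82 and 1.09 in HET-1 to HET-4. WT-4 was again the highest, and the 3 lowest embryos all had *Eed* hypo/wt fathers, yet HET-4 lay above 3 embryos of the other group. The means were 1.05 ± 0.24 (SD, n = 4) and 0.87 ± 0.16 (SD, n = 4).

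*Elavl3* encodes an RNA-binding protein of new neurons, and WT-1, WT-4 and HET-3 read higher than the other embryos. Its log2 signal was -2.21 in WT-1 and -2.19 in WT-4 against -3.15 in WT-2 and -2.97 in WT-3, and -1.53 in HET-3 against -3.09, -2.91 and -2.90 in HET-1, HET-2 and HET-4. HET-3 exceeded WT-2 by 3.07-fold. The group means of -2.63 ± 0.50 and -2.61 ± 0.72 (SD, n = 4 each) lay together. With arrays shifted by their medians, the log2 range from highest to lowest embryo fell from 1.62 to 0.75. WT-4 was then the highest embryo with HET-3 below it, and WT-1 lay beside HET-4. The distances of HET-3 and WT-1 from the lower embryos, and the 3.07-fold excess of HET-3, thus depended on the scaling.

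*Dcx*, an X-linked gene for a microtubule-associated protein of migrating neurons, was well above background in 4 embryos at its brightest probe (A_52_P244349). These were WT-1 with a log2 signal of -4.69, WT-4 with -4.82, HET-2 with -4.97 and HET-3 with -2.71. The others, not well above background, measured -5.87 in WT-2, -5.57 in WT-3, -6.92 in HET-1 and -5.67 in HET-4. HET-3 stood far above all of them. The means were -5.24 ± 0.58 (SD, n = 4) and -5.07 ± 1.76 (SD, n = 4). Another *Dcx* probe (A_55_P2080126) was above background in WT-1 alone, at -5.19, and read -4.94 in HET-3 without passing that mark, and the remaining probe was above background nowhere.

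**Figure D1:**
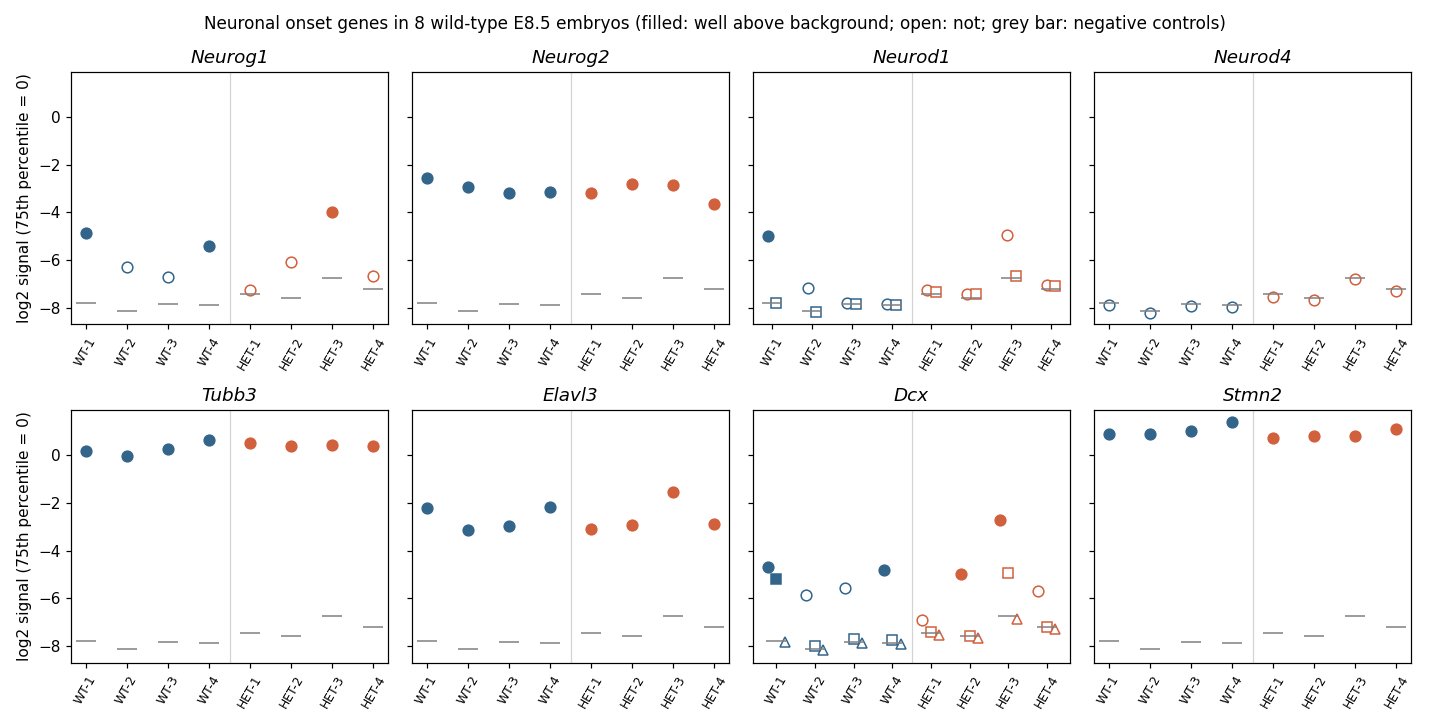
Log2 signal (vertical axis, 75th percentile of each array at 0) of the 11 probes of the 8 genes in each embryo (horizontal axis), blue for embryos of Eed wt/wt fathers and orange for those of Eed hypo/wt fathers. Circles, squares and triangles are different probes of a gene, filled symbols are well above background, open symbols are not, and grey bars are the median of the negative control spots of that array. Tubb3 and Stmn2 sit near 0 to 1.4 in every embryo, while Neurod4 and 1 probe each of Neurod1 and Dcx lie on the grey bars.

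Between the groups, 0 of the 5 tested members passed an adjusted p under 0.01 with at least a 2-fold change, where 0.0% of the 33096 tested probes did (limma, Benjamini-Hochberg adjustment over all of them). At an unadjusted p under 0.05 from limma the count was also 0 of 5, against 4.35% of all tested probes. The groups overlapped at all 5, while they did not overlap at 3.16% of tested probes.

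Differences on the log2 scale are embryos HET-1 to HET-4 minus WT-1 to WT-4. They were small for the members with steady signals on the 75th percentile scale. *Tubb3* differed by 0.16 (95% interval -0.16 to 0.48) and *Stmn2* by -0.19 (-0.51 to 0.14), and *Neurog2* by -0.16 (-0.68 to 0.37). These 3 intervals leave out a change of 2-fold in either direction. *Elavl3* differed by 0.02 (-0.91 to 0.95), an interval that also stops short of 2-fold. For *Dcx* the difference of 0.17 had an interval of -1.78 to 2.12, so a change of several fold either way was not excluded. Only 2 embryos of each group were well above background at that probe, so the size of the difference rests in part on unmeasured levels. The unadjusted p from limma ran from 0.226 for *Stmn2* to 0.955 for *Elavl3*, and each adjusted p was 1.00. The directions of *Neurog2*, *Elavl3* and *Dcx* rested on single embryos. *Neurog2* read 0.0219 without HET-4, *Elavl3* -0.34 without HET-3, -0.15 without WT-2 and -0.09 without WT-3, and *Dcx* -0.62 without HET-3 and -0.0426 without WT-2. Without WT-1 and HET-3 together, *Neurog2* read -0.12, *Elavl3* -0.20 and *Dcx* -0.43 and none was called. *Tubb3* stayed positive and *Stmn2* negative with any embryo left out, but their size moved, *Tubb3* to 0.0689 without WT-2 and to 0.29 without WT-4 (unadjusted p = 0.0165, adjusted p = 1.00, limma), and *Stmn2* to -0.0664 without WT-4. *Elavl3* was also negative, at -0.08, when each array was shifted by its median in place of the 75th percentile, a change of -0.10 for every probe alike.

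**Figure D2:**
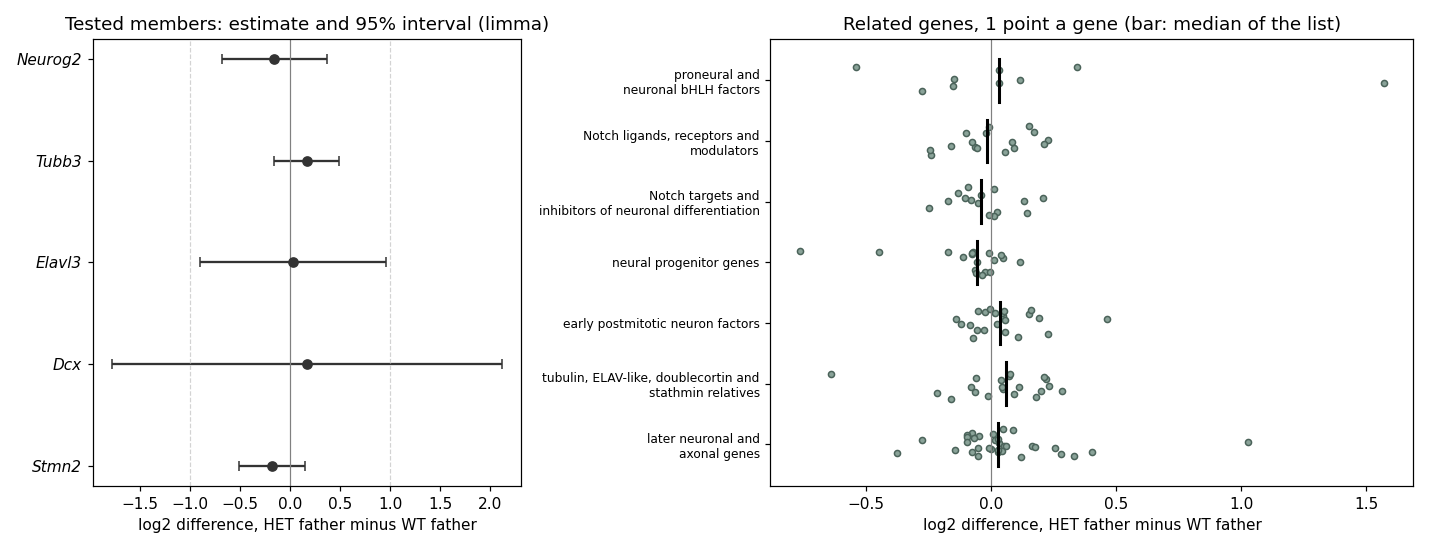
Left, log2 difference (horizontal axis) between the groups, HET father minus WT father, for the 5 tested members, with points for the limma estimate, bars for its 95% interval and dashed lines at a 2-fold change. Right, the same difference for each tested gene of 7 lists of related genes, with a black bar at the median of each list. The Dcx interval reaches from -1.78 to 2.12, whereas those of the other members stay inside the dashed lines, and the medians of the lists lie between -0.06 and 0.06.

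Sex was compared across both groups because *Dcx* is X-linked. Males minus females, with the father's genotype in the fit, differed by 0.15 for *Dcx* (95% interval -2.02 to 2.31), 0.26 for *Elavl3*, 0.09 for *Tubb3*, 0.03 for *Neurog2* and 0.01 for *Stmn2* on the log2 scale. Again 0 of 5 were called, where 0.0332% of tested probes were, and 0 of 5 had an unadjusted p under 0.05 from limma, against 3.27%. All 5 differences were positive, as were 55.1% over all tested probes, and *Neurog2*, *Tubb3* and *Stmn2* turned negative under the shift by medians, where every sex difference was lower by 0.147. Each of the 5 turned negative with some embryo left out, and *Dcx* read -0.68 without WT-1 and HET-3. For the difference of the father effect between the sexes, 0 of 5 were called, where 0.0% of tested probes were, and 0 of 5 had an unadjusted p under 0.05 from limma, against 2.22%. That last count became 1 without HET-1 or without WT-2.

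The members differed in how far they varied among embryos. The SD within groups was 1.31 on the log2 scale for *Dcx*, larger than at 96.2% of all tested probes, and 0.62 for *Elavl3*, larger than at 85.2%. *Neurog2* had 0.34, larger than at 69.2%. *Tubb3* with 0.20 and *Stmn2* with 0.21 lay close to the median SD of 0.21. The *Dcx* values in WT-2, WT-3, HET-1 and HET-4 were not well above background. This order depended on the scaling. With arrays shifted by their medians, the log2 range between embryos was 2.89 for *Dcx*, 1.62 for *Stmn2*, 1.40 for *Tubb3*, 1.16 for *Neurog2* and 0.75 for *Elavl3*.

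The signals of *Elavl3* and *Dcx* varied together, to a degree that depended on the scaling. Those of *Dcx* were not well above background in WT-2, WT-3, HET-1 and HET-4, so r rests in part on unmeasured levels. Both signals also had the same scaling value of each array subtracted, which the permutation p does not allow for. Over the 8 embryos Pearson's r was 0.903 (exact permutation p = 0.00089, 0.00893 adjusted over the 10 pairs of tested members, two-sided) and Spearman's rho 0.881 (exact permutation p = 0.00724, adjusted 0.0724). It was 0.904 over deviations from the group means, and 0.712 without HET-3 and WT-4, the embryos farthest from the median of *Elavl3*. It fell to 0.668 without WT-1 and HET-3 and to 0.472 with arrays aligned on their medians. The other 9 pairs had an adjusted permutation p of 0.625 or more, exact over all orders. The order of the pairs depended on the same settings, since *Elavl3* and *Stmn2* went from 0.179 to 0.885 without WT-1 and HET-3, and *Tubb3* and *Stmn2* from 0.390 to 0.901 with arrays aligned on their medians.

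The signals of *Elavl3* and *Dcx* also rose with the median signal of the array. The same scaling value of each array was subtracted from the signals and from the medians, which can build in part of r. The permutation p does not allow for this, so it cannot decide whether the RNA of these genes followed the array level. For *Dcx*, the values of WT-2, WT-3, HET-1 and HET-4 were also not well above background. Against the median signal of each array, *Dcx* had an r of 0.919 (exact permutation p = 7e-05, adjusted over 5 members 0.00037) and a rho of 0.976 (exact permutation p = 0.0004, adjusted 0.00198), and *Elavl3* an r of 0.926 (exact permutation p = 0.00191, adjusted 0.00477) and a rho of 0.786 (exact permutation p = 0.0279, adjusted 0.0698). Without HET-3 and WT-1, the 2 arrays farthest from the middle, r was 0.908 for *Dcx* and 0.825 for *Elavl3*. *Neurog2* had an r of 0.545, *Tubb3* 0.08 and *Stmn2* -0.17, with adjusted permutation p of 0.297, 0.843 and 0.836, exact over all orders. The 3 embryos highest in *Elavl3*, WT-1, WT-4 and HET-3, thus had the 3 highest array medians and the most receptor probes above background. The part of that in the *Elavl3* and *Dcx* values was not tested.

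**Figure D3:**
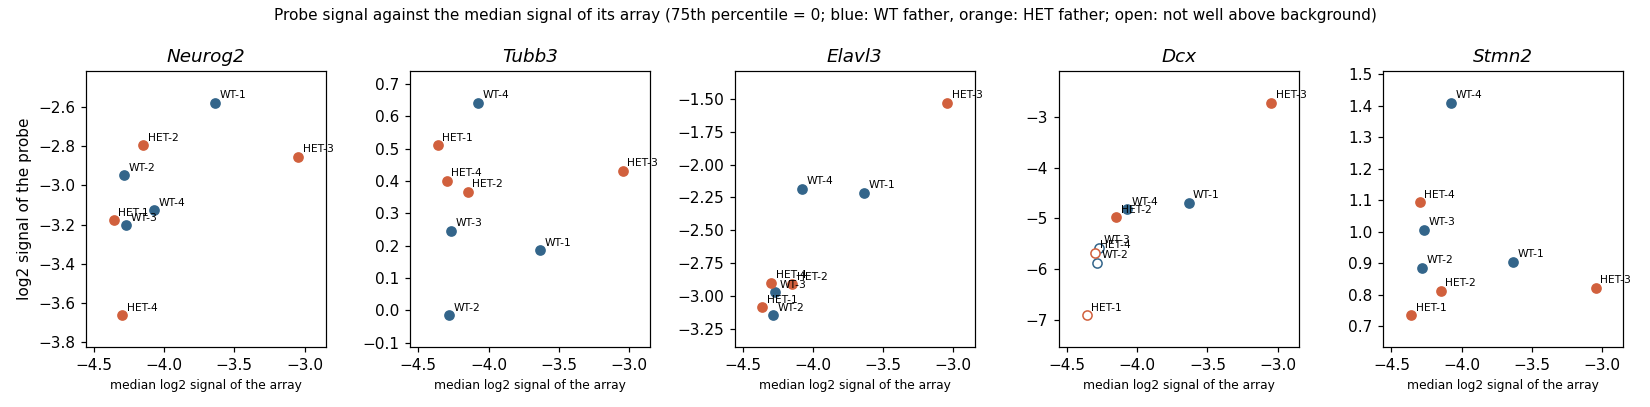
Log2 signal of each tested member (vertical axes, each with its own range) against the median log2 signal of its array (horizontal axis), 1 labelled point for each embryo. Blue points had Eed wt/wt fathers, orange points Eed hypo/wt fathers, and open points were not well above background. Elavl3 and Dcx rise with the array median to HET-3 at -1.53 and -2.71, whereas Tubb3 and Stmn2 are highest in WT-4.

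Each member measured in all embryos was set beside the 14041 other genes measured in all 8, and the 3 with the highest Pearson's r over the embryos were read off. Given so many genes and 8 embryos, r values this high are a description only. For *Neurog2* they were *Enpp4* (0.965), *Adrb1* (0.960) and *Nes* (0.945), the last of which encodes nestin, the intermediate filament of neural progenitors. For *Tubb3* they were *Foxa1* (0.955), a transcription factor of endoderm and floor plate, *Cfap45* (0.953) and *Gpr4* (0.945). For *Elavl3*, which followed the array median, they were *Fbxo32* (0.991), *Rnmt* (0.990) and *Bax* (0.986). For *Stmn2* they were *Pcdh19* (0.981), a protocadherin of the nervous system, *Susd5* (0.948) and *Tiam2* (0.943).

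With arrays set by their 75th percentile, WT-4 was the embryo highest in *Tubb3* and *Stmn2*. With arrays shifted by their medians, *Stmn2* was still highest in WT-4 but *Tubb3* was highest in HET-1. On the 75th percentile scale WT-4 was often the highest for related genes, and for genes of some other tissues as well. WT-4 was the highest embryo at 40 of 125 related genes measured in all embryos (32.0%), against 13.1% over the 14042 genes so measured. HET-3 was highest at 28.0%, against 26.5% over all genes. Examples, chosen after their values were seen, were *Ebf2*, a factor of early neurons, at -1.34 against -2.06 to -1.55 in the other 7 embryos, and *Map1b*, an axonal microtubule protein, at 2.22 against 1.05 to 1.66. Its mean deviation from the 8 embryos was at most 0.17 in a related list and 0.32 in the tail bud list, where it was highest for *T*, *Fgf8* and *Wnt3a*. WT-4 was at the same time the lowest in 4 of 5 yolk sac endoderm markers, with a mean deviation of -0.29, and the lowest in primitive erythroid markers, with -1.05 and with *Hbb-y*, an embryonic globin, at 5.76 against 6.96 to 8.38 in the others. The summed level of the 5 erythroid markers was 467 to 1062 with *Eed* wt/wt fathers and 725 to 915 with *Eed* hypo/wt fathers, on a linear scale in units of the 75th percentile. All 5 were measured, and the part of these other tissues in the *Stmn2* and *Tubb3* values was not tested.

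HET-4, the lowest embryo in *Neurog2*, was the lowest at 31 of the 125 related genes (24.8%), against 11.3% over all genes so measured. *Hes5*, a Notch target that holds progenitors undifferentiated, was lowest there, at 2.50 against 3.13 to 3.74. Some lists outside the neural tube were low in HET-4 too, with a mean deviation of -0.42 for paraxial mesoderm and somite and -0.16 for neural crest. The bHLH factors had -0.50 and the neural progenitor genes -0.25. The bHLH value includes *Olig2* at -5.88 and *Ptf1a* at -5.08 in HET-4. Both lay below -5.06, the lowest signal marked well above background on that array. Other lists were not low, with 0.23 for markers of earlier stages and 0.05 for tail bud, or lay near the mean, with -0.0055 for yolk sac endoderm and -0.05 for heart. HET-4 also had the high local background given above, and the part of these in its low values was not tested.

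**Figure D4:**
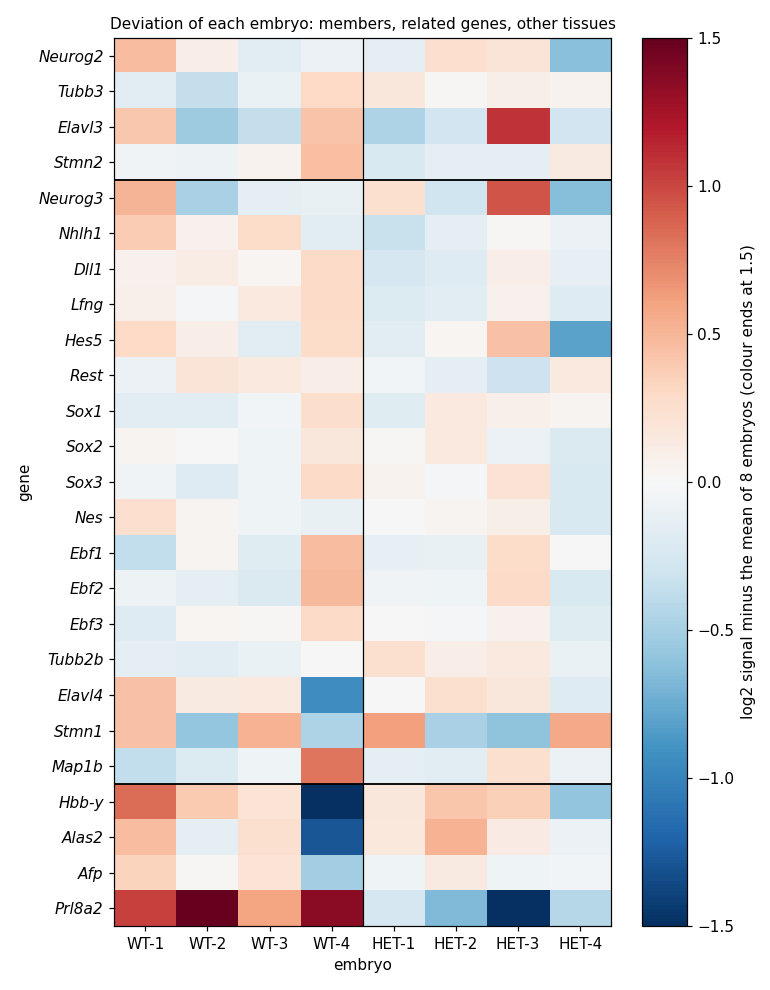
Log2 signal of each gene minus its mean over the 8 embryos (colour, ending at 1.5 either way), with embryos in columns and genes in rows. The upper block holds members measured in all embryos, the middle block related genes and the lower block markers of blood, yolk sac and decidua, the genes of the lower blocks being chosen after their values were seen. WT-4 is high for Stmn2, Ebf2 and Map1b and low for Hbb-y at 5.76, and HET-4 is low for Neurog2 and Hes5.

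The genes that act around the members gave a like picture. In 7 lists of 147 related genes, 146 were on the array and 133 were tested, and 0 were called between the 2 kinds of father, where 0.0% of the 15379 tested genes were. At an unadjusted p under 0.05 from limma 2 were higher in HET embryos and 2 lower, 3.01% of the 133, where 2.69% of all tested genes were higher and 1.5% lower. The median log2 difference was 0.005, against 0.02 over all tested genes, with 67 positive and 66 negative.

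Of the 16 Notch ligands, receptors and modulators, all tested, 2 had an unadjusted p under 0.05 and both were lower. *Dll1*, a ligand that new neurons present to their neighbours, measured 0.20, 0.25, 0.18 and 0.43 in WT-1 to WT-4 and -0.11, -0.06, 0.24 and 0.02 in HET-1 to HET-4. Its difference of -0.24 (unadjusted p = 0.0445, adjusted p = 1.00, limma) rested on groups that overlapped through HET-3. *Lfng*, which modifies Notch receptors with sugar, differed by -0.25 (unadjusted p = 0.0359, adjusted p = 1.00, limma), from -1.11 ± 0.13 to -1.35 ± 0.13 (SD, n = 4 each), and its groups also overlapped. The list's median was -0.02, with 7 positive and 9 negative.

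Among 15 Notch targets and inhibitors of neuronal differentiation, 0 of the 15 tested had an unadjusted p under 0.05 from limma, and the median was -0.04. *Hes5* differed by -0.25, from 3.42 ± 0.22 to 3.17 ± 0.52 (SD, n = 4 each). *Rest*, the repressor of neuronal genes in other cells, differed by -0.17 at its brighter probe and by -0.18 at the other.

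For 18 neural progenitor genes, all tested, 4 differences were positive and 14 negative, with a median of -0.06 and 0 at an unadjusted p under 0.05 from limma. *Sox2*, which keeps neural progenitors in their state, measured 0.64 ± 0.10 and 0.57 ± 0.16 (SD, n = 4 each). Of 15 other bHLH factors of neurons and their partners 9 were tested, with a median of 0.03 and 0 at an unadjusted p under 0.05 from limma. *Atoh1*, *Neurod2* and *Nhlh2*, bHLH factors of other or later neurons, were above background in no embryo.

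For 28 early postmitotic neuron factors, 22 tested, the median was 0.03 with 0 at an unadjusted p under 0.05 from limma. *Myt1*, *Tlx3* and *Tbr1* were above background in no embryo. For 35 later neuronal and axonal genes, 33 tested, the median was 0.03, and 1 gene was higher at an unadjusted p under 0.05. That was *Snap25*, a protein of synaptic vesicle release, with a difference of 0.25 (unadjusted p = 0.0455, adjusted p = 1.00, limma) and groups that overlapped.

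Among 20 relatives of the cytoskeletal and RNA-binding members, all tested, the median was 0.06 and *Dclk2*, a doublecortin-like kinase, was higher by 0.28 (unadjusted p = 0.0206, adjusted p = 1.00, limma). It ran from 0.16 to 0.37 with *Eed* wt/wt fathers and from 0.34 to 0.70 with *Eed* hypo/wt fathers. *Tubb2b*, the beta-tubulin of progenitors and neurons, differed by 0.20 at its brighter probe and by 0.01 at the other.

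Probes of the same gene disagreed for relatives of *Elavl3* and *Stmn2*. *Elavl4* differed by 0.11 at its brighter probe, where WT-4 was lowest at -1.12, and by -0.71 at the other (unadjusted p = 0.00727, adjusted p = 1.00, limma). This dimmer probe ran from -4.30 to -3.86 with *Eed* wt/wt fathers and from -5.28 to -4.41 with *Eed* hypo/wt fathers, without overlap. It was not well above background in HET-3 and HET-4, so that the size of its difference rests in part on unmeasured levels. *Stmn1*, the stathmin of dividing cells, took a higher or a lower level at its brighter probe in both groups, between 6.36 and 6.52 in WT-1, WT-3, HET-1 and HET-4 and between 5.31 and 5.45 in the other 4 embryos. At its other probe the same embryos lay between 5.25 and 5.61, so that the brighter *Stmn1* probe and not the gene as a whole fell into these levels.

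Markers of other tissues were set beside these values. Neural crest and placode lists, the other sources of early neurons, had medians of -0.08 and -0.09 with 0 genes called. In the placode list 2 differences were positive and 7 negative, and *Pax3*, a factor of placode and dorsal neural tube named after its value was seen, had -0.22 (unadjusted p = 0.0299, adjusted p = 1.00, limma). All 5 tail bud genes were lower, with a median of -0.18 and 0 called. Of 5 markers of decidua and trophoblast 4 were on the array and 3 tested, and their summed level was 6.90 to 10.8 with *Eed* wt/wt fathers and 2.27 to 5.43 with *Eed* hypo/wt fathers. *Prl8a2*, a prolactin of the decidua, measured 1.56 to 2.92 and -2.61 to 0.72, a difference of -2.46 (unadjusted p = 0.0126, adjusted p = 1.00, limma) without overlap. *Prl3d1*, also tested, differed by -0.91 at its brighter probe (unadjusted p = 0.26, limma) and by -0.26 at the other, and the groups overlapped at both. *Tpbpa*, a marker of spongiotrophoblast, was above background in no embryo, and *Dcn* overlapped between the groups. The part of attached maternal or placental tissue in the member values was not tested.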

How the data were processed

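RNA of 8 E8.5 embryos was measured on single-colour Agilent 8x60K arrays, 4 for each father's genotype. The deposited intensity values were made by the authors with Agilent Feature Extraction 11.0.1.1 (submitters' processing notes), which subtracts background, and carry no scaling between arrays. A deposited series table gives the same values to within 0.497%, and 0 sample columns went unused. The study's methods state a shift by an unnamed percentile, a filter on the lowest 20%, and a threshold of adjusted p under 0.01 and 2-fold, but no test.

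Here the 75th percentile of every array was subtracted from its log2 intensity, without control or outlier spots, and repeated spots were averaged by probe. Probes above the lowest 20% and well above background on at least 4 arrays were compared with limma 3.58.1 (R 4.3.3; Python 3.11.15, pandas 2.3.3, numpy 2.4.6, scipy 1.17.1, matplotlib 3.10.9), after the test was checked on simulated data. Adjusted p-values are Benjamini-Hochberg values over all tested probes. The number of arrays limits precision. Of 28685 RefSeq probes 27235 were named through a table of assembly GRCm38.p6, which also gave the promoters.

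The members and lists were chosen with earlier results of these data known. Named genes are all members, in each related list up to 3 genes with the smallest unadjusted p under 0.05, 7 genes named whatever their values (*Rest*, *Hes5*, *Dll1*, *Sox2*, *Elavl4*, *Tubb2b*, *Stmn1*; 1 more is not reported here), and the 3 genes most like each member. The brightest tested probe stands for a gene. Correlations were planned as a description, and their permutation p-values were added later. Marker lists not described further (heart, earlier and later stages) had 0 called genes. Alternatives were normexp (offset 50) with quantile normalization, quantile normalization, a median shift, the series table, filters, thresholds, moderation, array weights, sex, replicate number or embryo code in the fit, each embryo left out and, chosen after the data were seen, WT-1 and HET-3 left out together.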

Additional observations from a re-analysis of the deposited data

Results flagged for a closer look

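In a group of 4 embryos, a single embryo was taken to stand apart where its gap to the nearest other exceeded Dixon's 95% critical value (gap divided by range). *Elavl3* met this in HET-3, whose log2 signal of -1.53 left a gap of 0.88 of the range of its group. The *Dcx* probe A_55_P2080126 met it in WT-1, at -5.19, with a gap of 0.891. These were 2 of 14 groups checked, those with at least 1 embryo well above background. The *Dcx* group entered through WT-1 alone, the embryo then flagged. The HET group of that probe, with HET-3 at -4.94 against -7.57 to -7.20, was left out. The count therefore cannot be set against the 1 in 20 that chance gives. HET-3 and WT-1 have the highest array medians of the series, and the part of that was not tested.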

How the results depend on the processing

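Under every alternative, 0 tested member probes were called for father, sex or their interaction, and 0 genes of the related lists for father. Over all probes the father count was 0 except without WT-1 and without HET-4 (0 to 1 with an embryo left out) and without WT-1 and HET-3 together (1); probes at an unadjusted p under 0.05 numbered 478 to 5333, against 1440 as reported. With no filter, 3 member probes that were above background on no array had an unadjusted p under 0.05, and 0 were called. The replicate numbers do not pair the embryos (correlations of -0.59 to -0.05 between same-numbered embryos); with replicate number as a block, 0 members and 0 probes were called, *Stmn2* kept -0.19 and 875 probes had an unadjusted p under 0.05.

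The father difference of *Elavl3* turned negative with array weights (-0.0285), the embryo code as a random block (-0.0649), the median shift (-0.0793) and without WT-1 and HET-3 (-0.20), and that of *Dcx* with array weights (-0.0242) and without WT-1 and HET-3 (-0.43). With an embryo left out they ran from -0.34 to 0.18 for *Elavl3*, -0.62 to 0.78 for *Dcx* (both lowest without HET-3) and -0.27 to 0.0219 for *Neurog2* (highest without HET-4), 0.0689 to 0.29 for *Tubb3* and -0.26 to -0.0664 for *Stmn2*. The count of members at an unadjusted p under 0.05 became 1 for father without WT-4, and 1 for the interaction without HET-1 or WT-2. The sex difference turned negative for *Neurog2* with array weights (-0.0043), normexp (-0.0433), quantile normalization (-0.14) and the median shift (-0.11), for *Tubb3* with the median shift (-0.0545), for *Dcx* with array weights (-0.46) and without WT-1 and HET-3 (-0.68), and for *Stmn2* with normexp (-0.0014), the median shift (-0.14) and without WT-1 and HET-3 (-0.0383). With an embryo left out it ran from -0.18 to 0.20 for *Neurog2*, -0.0403 to 0.22 for *Tubb3*, -0.12 to 0.52 for *Elavl3*, -0.77 to 0.92 for *Dcx* and -0.13 to 0.10 for *Stmn2*.

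The median shift changed the range between embryos to 1.40 for *Tubb3*, 0.75 for *Elavl3*, 2.89 for *Dcx* and 1.62 for *Stmn2*, from 0.66, 1.62, 4.20 and 0.67. *Dcx* had 2.48 with quantile normalization, and without WT-1 and HET-3 *Elavl3* had 0.96 and *Dcx* 2.10. The correlation of *Elavl3* and *Dcx* was 0.472 with the median shift, 0.756 with quantile normalization and 0.668 without WT-1 and HET-3, against 0.903. The causes were not tested. Signal near background limits *Dcx*, *Neurog1*, *Neurod1* and *Neurod4*.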
